A study of Mus musculus with 7 samples.

Results

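Late granule and mature neutrophil genes are 10 transcripts made from the last precursor stages of the neutrophil to the circulating cell: Camp, Ngp, Ltf, Lcn2, Chil3, Mmp8, S100a8, S100a9, Retnlg and Cxcr2. They were chosen by name, and all 10 were found among the 56854 gene identifiers listed in every library. The libraries came from whole shoulder joints of 7 mice, 1 library per mouse, taken 2 weeks after the left supraspinatus tendon was repaired, one of the rotator cuff tendons that steady the shoulder. The groups were wild type (n = 3) and Tnc-/- (n = 4), which lacks Tenascin C, a matrix glycoprotein made in healing tendon. Both groups had the same surgery, and there was no unoperated joint among the samples. The labels give no age, strain or allele, and do not say whether the joint was cleared of bone marrow, where neutrophils are made.

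Neutrophils fill their granules in a fixed order as they mature. Primary granules, with myeloperoxidase and serine proteases, form first. Specific granules follow, with lactoferrin (Ltf), lipocalin-2 (Lcn2), the cathelicidin Camp and its relative neutrophilic granule protein (Ngp). Gelatinase granules come last. The transcription factor C/EBP epsilon is needed for the specific granule genes. The mature cell is full of the calcium-binding pair S100a8 and S100a9, and carries Cxcr2, the receptor for chemokines that draw it out of the marrow and into a wound.

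The promoters of the 4 specific granule genes are shown because C/EBP proteins act on this gene class. Each is the 250 bases before the RefSeq start, 5′ to 3′ on the gene's strand, in build GRCm38.p6. They lie at chr9:109849457-109849706 on the minus strand (Camp), chr9:110419558-110419807 on the plus strand (Ngp), chr9:111019042-111019291 on the plus strand (Ltf) and chr2:32387740-32387989 on the minus strand (Lcn2). Capitals mark matches to TTGCNNAA, a C/EBP core, on either strand (TTNNGCAA on the other), where N is any base.
Camp: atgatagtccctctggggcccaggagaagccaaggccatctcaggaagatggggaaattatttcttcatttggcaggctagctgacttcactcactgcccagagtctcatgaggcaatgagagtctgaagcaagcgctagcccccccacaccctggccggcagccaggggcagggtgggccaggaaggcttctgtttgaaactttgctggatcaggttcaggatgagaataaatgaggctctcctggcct
Ngp: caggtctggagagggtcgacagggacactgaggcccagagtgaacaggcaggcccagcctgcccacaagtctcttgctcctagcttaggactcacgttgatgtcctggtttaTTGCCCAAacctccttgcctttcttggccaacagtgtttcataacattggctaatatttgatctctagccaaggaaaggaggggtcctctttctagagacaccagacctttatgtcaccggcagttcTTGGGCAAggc
Ltf: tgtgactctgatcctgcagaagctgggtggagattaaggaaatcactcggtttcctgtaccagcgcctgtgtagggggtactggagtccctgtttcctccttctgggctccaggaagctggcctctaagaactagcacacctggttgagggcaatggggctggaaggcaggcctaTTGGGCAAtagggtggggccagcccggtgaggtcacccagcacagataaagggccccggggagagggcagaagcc
Lcn2: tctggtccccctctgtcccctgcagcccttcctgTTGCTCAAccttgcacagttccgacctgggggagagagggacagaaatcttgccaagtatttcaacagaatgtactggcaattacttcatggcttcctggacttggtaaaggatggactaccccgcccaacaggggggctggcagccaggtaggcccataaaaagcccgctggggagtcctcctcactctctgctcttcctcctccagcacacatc

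Ngp held 2 matches, whose first bases lay 138 and 11 bases before the start. Ltf held 1 at 75 bases and Lcn2 held 1 at 216 bases, while Camp held none in this window. Over the 10 genes, 6 held a match, and the other 3 were Mmp8, S100a9 and Retnlg. Of 32851 mouse promoters of the same length, 9.6% did. For Mmp8 and Retnlg the bases just after the RefSeq start were not in the gene's annotated transcript (GENCODE M21), so their starts are less sure. The core bound by PU.1, GAGGAA on either strand, was in 5 of the 10 and in 23.3% of all promoters, and no match of 1 core overlapped a match of the other in the 10 genes. A match is a description of the letters and not a site shown to be used.

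Libraries held 13464057 to 28191101 gene counts. Levels are counts-per-million (CPM), each count divided by its library total after TMM scaling. Tnc itself stood at 437, 292 and 327 CPM in the wild-type libraries, in order, and at 33.4, 38.9, 39.9 and 55.0 CPM in those of Tnc-/-. The log2 fold change was -3.08 with an SE of 0.21 (edgeR, adjusted p = 2.8e-04). Wild-type libraries 2 and 3 stood apart. Their log2 CPM correlated with the Tnc-/- libraries at 0.731 to 0.797 across genes, against 0.96 to 0.964 for wild-type library 1 (genes are not independent replicates). Smell and pheromone receptor genes, which a joint should hardly use, summed to 1399 and 982 CPM in them, to 89.1 CPM in wild-type library 1 and to 36.5 to 43.9 CPM in Tnc-/-. Files of the 2 genotypes list different sets of identifiers: how a library was counted and its genotype cannot be told apart here. The calls are therefore also given without wild-type libraries 2 and 3.

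With all 7 libraries in the fit, the 10 genes as a group were more abundant in the Tnc-/- joints. In bulk tissue, more cells of a type and more RNA per cell cannot be told apart. By edgeR's quasi-likelihood test across 17791 genes, 9 of the 10 rose and none fell, against 10.3% of all tested genes called higher and 18.7% called lower. The exception was S100a8, at an adjusted p of 0.0618. The median log2 fold change of the 10 genes was 1.15, with a range of 0.84 to 1.41, beside a median of -9.0e-04 over all genes tested. These calls did not hold without wild-type libraries 2 and 3: with both left out, none of the 10 was called by edgeR (1 at an unadjusted p under 0.05), with a median of 0.55, where 2.53% of tested genes were called higher. With the smell and pheromone receptor sum as a covariate none was called either (edgeR, 0 at an unadjusted p under 0.05). The median was then 0.25, and 1.06% of genes were called higher. The covariate was itself higher in every wild-type library than in any Tnc-/- library. This fit therefore cannot fully separate the covariate from genotype. In the same 9 genes every Tnc-/- library lay above every wild-type library, as in 17.7% of the tested genes. The 10 genes together took 0.604, 0.319 and 0.369% of the gene counts in wild-type libraries 1 to 3 and 1.09, 0.619, 0.847 and 0.731% in Tnc-/- libraries 1 to 4.

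**Figure D1:**
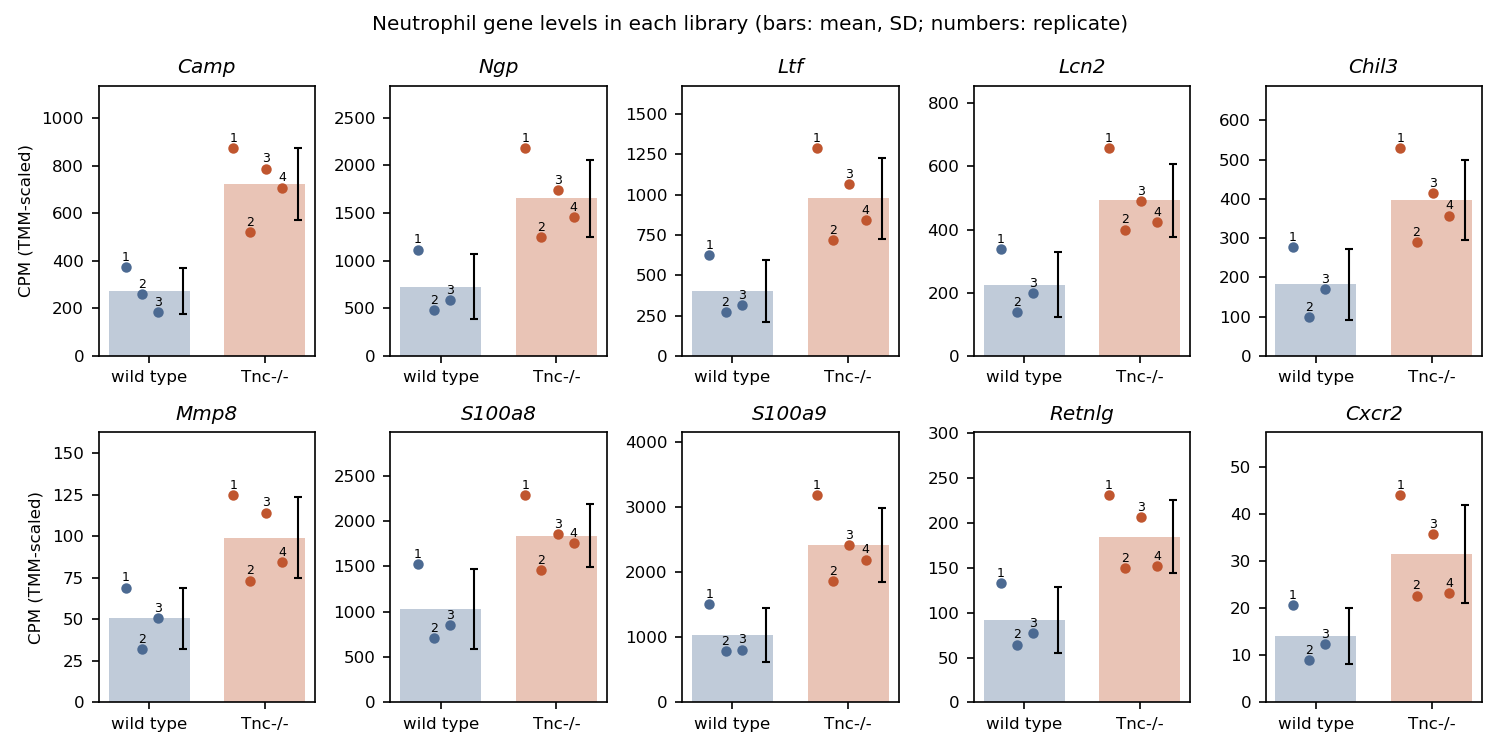
Level of each of the 10 genes in CPM (vertical axes, each from 0) in the 3 wild-type and 4 Tnc-/- libraries; points are libraries with their replicate number, bars are group means and error bars are SD. In every gene but S100a8 the lowest Tnc-/- library, which is always library 2, lies above wild-type library 1.

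Among the specific granule genes, Camp, the mouse cathelicidin whose cut peptide kills bacteria, differed most. Camp stood at 374, 259 and 184 CPM in wild-type libraries 1, 2 and 3 and at 873, 522, 787 and 707 CPM in Tnc-/- libraries 1 to 4. The groups did not overlap, and the lowest Tnc-/- library stood well clear of the highest wild-type one. Its log2 fold change was 1.41 (SE 0.28; edgeR, adjusted p = 0.00946). Ngp, a cathelicidin-like granule protein, was at 1116, 481 and 584 CPM in wild type and at 2180, 1244, 1737 and 1455 CPM in Tnc-/-. Here wild-type library 1 came close to the lowest Tnc-/- library, and the log2 fold change was 1.19 (SE 0.33; edgeR, adjusted p = 0.0283).

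Ltf encodes lactoferrin, which binds iron and so starves microbes of it. Ltf was at 625, 274 and 313 CPM in wild type and at 1288, 717, 1066 and 843 CPM in Tnc-/-. The log2 fold change was 1.28 (SE 0.33; edgeR, adjusted p = 0.0228). Lcn2, which captures bacterial iron carriers and is also made by other cells under inflammation, was at 339, 138 and 198 CPM in wild type and at 658, 400, 491 and 424 CPM in Tnc-/-. The log2 fold change of Lcn2 was 1.13 (SE 0.32; edgeR, adjusted p = 0.0285). In both genes wild-type library 1 lay nearer to Tnc-/- library 2 than to the other wild-type libraries.

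Chil3 (Ym1) is a chitinase-like lectin of neutrophils and of some macrophages. It was at 278, 99.0 and 171 CPM in wild type and at 529, 290, 415 and 358 CPM in Tnc-/-, with a log2 fold change of 1.12 and an SE of 0.35 (edgeR, adjusted p = 0.0399). The gap between the groups was narrow, from 278 CPM in wild-type library 1 to 290 CPM in Tnc-/- library 2. Chil4, a close copy of Chil3 whose reads could be split with it, had 22 counts in all 7 libraries together. Mmp8, the neutrophil collagenase, which cuts fibrillar collagen, was at 69.2, 32.0 and 50.6 CPM in wild type and at 125, 73.3, 114 and 84.5 CPM in Tnc-/-. Its log2 fold change was 0.97 (SE 0.28; edgeR, adjusted p = 0.0326), and its groups too were separated only narrowly.

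S100a8 and S100a9 form calprotectin, which makes up much of the protein of the neutrophil cytosol and acts on Tlr4 once released. S100a9 was at 1516, 790 and 811 CPM in wild type and at 3195, 1864, 2421 and 2197 CPM in Tnc-/-, with a log2 fold change of 1.22 and an SE of 0.30 (edgeR, adjusted p = 0.0187). S100a8 stood at 1528, 706 and 852 CPM in wild type and at 2288, 1456, 1852 and 1756 CPM in Tnc-/-. Wild-type library 1 lay above Tnc-/- library 2, so the groups overlapped, and the log2 fold change of 0.84 (SE 0.29) was not past the threshold (edgeR, adjusted p = 0.0618). Retnlg, a resistin-like secreted protein of mature neutrophils, was at 133, 64.5 and 77.0 CPM in wild type and at 231, 149.5, 206 and 152 CPM in Tnc-/-. The log2 fold change of Retnlg was 1.01 (SE 0.28; edgeR, adjusted p = 0.0267).

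Cxcr2 was the least abundant of the 10. It was at 20.6, 9.04 and 12.5 CPM in wild type and at 44.1, 22.7, 35.8 and 23.3 CPM in Tnc-/-. Tnc-/- libraries 2 and 4 were only slightly above wild-type library 1, and the log2 fold change was 1.16 (SE 0.34; edgeR, adjusted p = 0.0348). Its lowest library held 136 counts, whereas S100a9 held between 11894 and 86381 counts per library. Counting error was therefore small beside the spread between libraries.

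Per kilobase of exon (GENCODE M21), the order of the levels was the same in both genotypes. S100a9 was first, at 1991 ± 791 CPM per kb in wild type (SD, n = 3) and 4634 ± 1084 in Tnc-/- (SD, n = 4). S100a8 was second, at 1482 ± 632 and 2649 ± 496 CPM per kb, within 1 SD of S100a9 in wild type. Ngp (595 ± 279 and 1354 ± 331 CPM per kb) and Camp (359 ± 126 and 953 ± 198 CPM per kb) followed, and their ranges of 1 SD met in both genotypes. Retnlg, Ltf, Chil3 and Lcn2 lay together, from 85.8 to 154 CPM per kb in wild type and from 188 to 311 CPM per kb in Tnc-/-, and the 1 SD ranges of neighbours among them met. Mmp8 (20.9 ± 7.66 and 41.0 ± 10.1 CPM per kb) and Cxcr2 (4.60 ± 1.95 and 10.3 ± 3.41 CPM per kb) were the lowest.

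The libraries kept the same order from gene to gene. Within Tnc-/-, library 1 was the highest, library 3 the second and library 2 the lowest in all 10 genes, with a highest-to-lowest ratio of 1.55 to 1.95. Within wild type, library 1 was the highest in all 10 genes and library 2 the lowest in 9, Camp being the exception with its lowest level in library 3. The highest-to-lowest ratio within wild type was 1.92 to 2.81. Summed over the 10 genes, the CPM were 5998, 2852 and 3253 in wild type and 11410, 6738, 9126 and 7999 in Tnc-/-, and the ratio of the group means was 2.19.

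**Figure D2:**
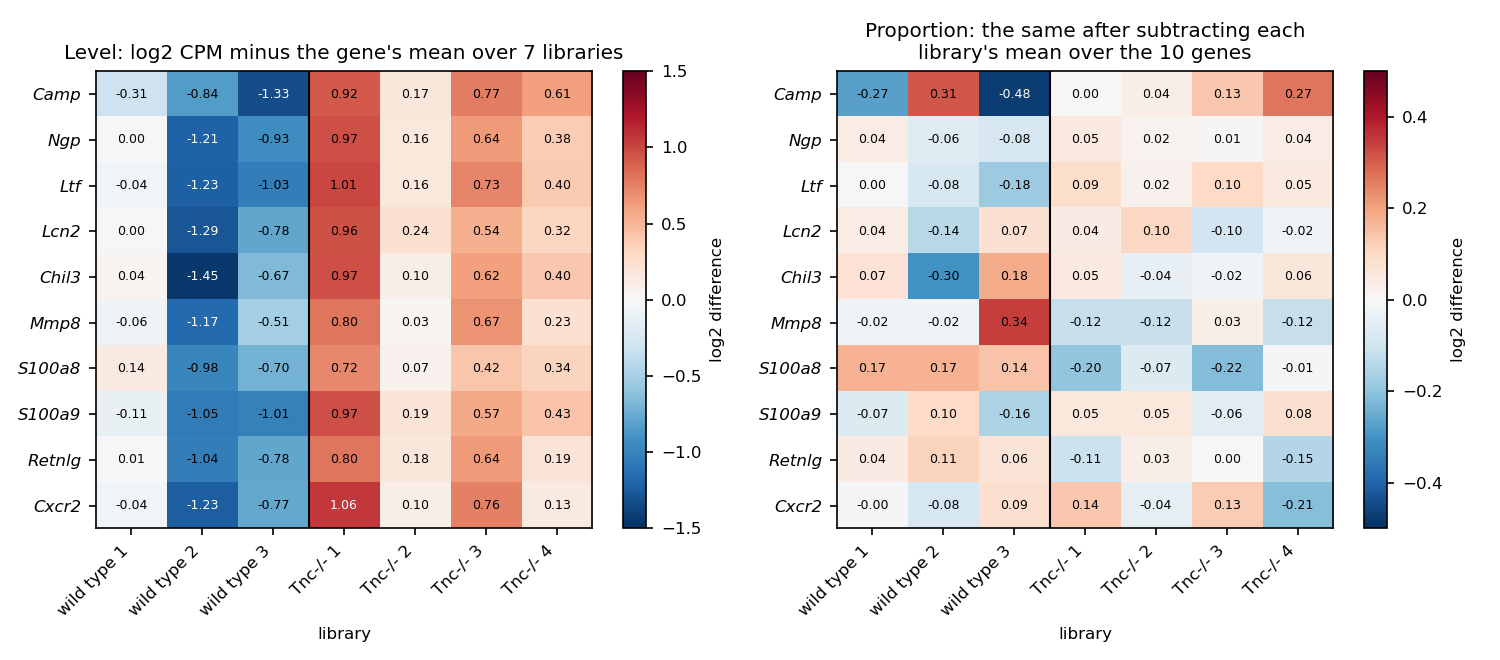
Left, log2 CPM of each gene (rows) in each library (columns) minus the gene's mean over the 7 libraries; right, the same after subtracting from each library its mean over the 10 genes, on a narrower colour scale. On the left every gene is lowest in wild-type library 2 or 3 and highest in Tnc-/- library 1, while on the right S100a8 is higher in all 3 wild-type libraries than in any Tnc-/- library.

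The proportions among the 10 genes differed less than their levels. After the mean log2 CPM of the 10 genes was subtracted within each library, the change in a gene's mean between the genotypes ranged from -0.29 for S100a8 to 0.26 for Camp on the log2 scale. S100a8 stood 2.26, 2.26 and 2.23 log2 units above the mean of the 10 genes in wild-type libraries 1 to 3, but 1.89, 2.02, 1.87 and 2.08 units above it in Tnc-/- libraries 1 to 4. The groups did not overlap in this measure, nor did they for Retnlg (lower share in Tnc-/-) and Ltf (higher share). The other 7 genes overlapped. The measure is defined within the 10 genes, so it has no share over all genes, and a shift in 1 gene moves the others. With 3 and 4 libraries an exact permutation test cannot give a p under 0.0571, so separation alone is weak evidence. The reads of S100a9 for each read of S100a8 numbered 0.992, 1.12 and 0.952 in wild type and 1.40, 1.28, 1.31 and 1.25 in Tnc-/-. This ratio needs no scaling between libraries, but both genes were counted in the run of their genotype, whose part in the difference was not tested. Camp for each Ngp read was variable in wild type, at 0.335, 0.538 and 0.316, and steadier in Tnc-/-, at 0.401, 0.419, 0.453 and 0.486.

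Against wild-type library 1 alone, the distance was smaller. The mean of the 4 Tnc-/- libraries was 1.20 (S100a8) to 1.93 (Camp) times the level in wild-type library 1, and all 4 Tnc-/- libraries exceeded it in every gene but S100a8, where 3 did. When wild-type libraries 2 and 3 were both left out, Camp came nearest to a call, at 0.95 (SE 0.28; edgeR, adjusted p = 0.0745), and S100a8 was at 0.26 (SE 0.28; edgeR, adjusted p = 0.603). The lone wild-type library was then assumed to vary like the Tnc-/- ones. Without wild-type library 1 all 10 were called higher with a median of 1.65, where 24.3% of genes were. In the covariate fit Camp was at 0.78 (SE 0.37) and S100a8 at -0.03 (SE 0.33). DESeq2 on all 7 libraries called all 10 higher, as it did 10.5% of the genes to which it gave an adjusted p. Limma voom called 2, Camp and S100a9, and 4.09% of all tested genes higher.

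**Figure D3:**
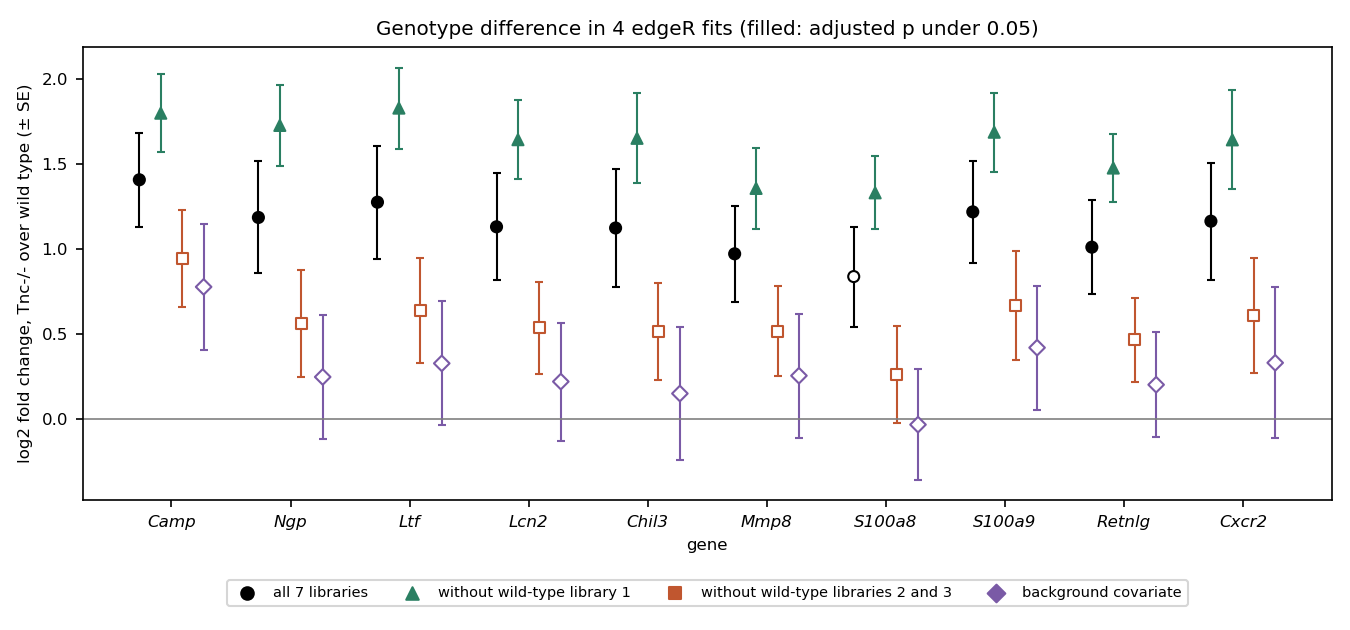
Log2 fold change of Tnc-/- over wild type (vertical axis, error bars SE) of the 10 genes in 4 edgeR fits, the last with the smell and pheromone receptor sum as background covariate; filled symbols have an adjusted p under 0.05. Values fall from the fit without wild-type library 1 (median 1.65) to all 7 libraries (1.15), the fit without wild-type libraries 2 and 3 (0.55) and the covariate fit (0.25).

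Single libraries also decided the number of calls. Camp was called in each of the 7 fits that left out 1 library, with adjusted p (edgeR) up to 0.0421. It was the single gene called without wild-type library 2, without wild-type library 3, without Tnc-/- library 1 and without Tnc-/- library 3, where 5.54, 3.27, 4.82 and 3.91% of all tested genes were called higher. Without Tnc-/- library 4, Camp, Ltf, Retnlg and S100a9 were called (5.14% of all genes), and without Tnc-/- library 2, 8 were (5.73% of all genes). All 10 log2 fold changes stayed above 0 in these 7 fits, with medians between 0.91 and 1.65.

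The other genes of the neutrophil programme were read from 7 lists by role, with 56 genes, of which 50 were tested. Of these, 18 rose and 1 fell in Tnc-/- by the same test, and 48 had a log2 fold change above 0. Over all 17791 tested genes 10.3% were called higher and 18.7% lower, and 8886 had a log2 fold change above 0. Genes at 0 counts in all 7 libraries were Ptx3, Fpr2, Timp1 and Timp3. The span of each overlaps another gene in GENCODE M21, which none of the spans of the 10 studied genes does; the part of such overlaps in the zeros was not tested. Without wild-type libraries 2 and 3, 2 of the 50 were called, Cebpe and Il1r2, both higher, where 2.53% of all genes were called higher. Il1r2, a decoy receptor for interleukin-1, was at 1.82, 8.57 and 6.68 CPM in wild type and at 8.14, 5.35, 5.99 and 4.81 CPM in Tnc-/-, so its call rests on the 34 counts of wild-type library 1. With all 7 libraries its log2 fold change was 0.10 (SE 0.53; edgeR, adjusted p = 0.908). With the receptor covariate none of the 50 was called (edgeR; 3 at an unadjusted p under 0.05).

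Among primary granule genes 1 of 5 rose. Prtn3 (proteinase 3) went from 110 ± 55.4 CPM in wild type (SD, n = 3) to 245 ± 64.9 CPM in Tnc-/- (SD, n = 4); its log2 fold change was 1.16 with an SE of 0.33 (edgeR, adjusted p = 0.0324). Mpo (myeloperoxidase) was at 145 ± 83.5 and 287 ± 75.2 CPM and was not past the threshold (0.99, SE 0.36; edgeR, adjusted p = 0.0685). The summed primary granule genes were 0.122, 0.109 and 0.0924 of the summed 10 genes in wild type and 0.108, 0.102, 0.0878 and 0.0986 in Tnc-/-, with overlapping groups.

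Among other specific and gelatinase granule genes 5 of 10 tested rose: Fcnb, Cd177, Pglyrp1, Hp and Adam8. Cd177, a surface protein of neutrophils stored in specific granules, went from 70.1 ± 33.2 to 188 ± 47.8 CPM (1.42, SE 0.32; edgeR, adjusted p = 0.014). Hp (haptoglobin) went from 138 ± 36.1 to 250 ± 27.1 CPM (0.85, SE 0.19; edgeR, adjusted p = 0.0131). Mmp9, the gelatinase that names the last granule class, was picked out after its values were seen. It was at 561, 386 and 456 CPM in wild type and at 480, 381, 486 and 485 CPM in Tnc-/-, and its log2 fold change was -0.03 with an SE of 0.18 (edgeR, adjusted p = 0.917). Mmp9 is also made by osteoclasts and macrophages.

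Of 11 tested receptors of the mature cell, 3 rose: Csf3r, Ly6g and Clec4e. Csf3r, the receptor of the growth factor G-CSF, went from 54.4 ± 27.3 to 151 ± 33.4 CPM (1.47, SE 0.33; edgeR, adjusted p = 0.0139). Ly6g, the surface marker by which mouse neutrophils are sorted, was at 18.2, 9.3 and 6.3 CPM in wild type and at 40.2, 23.9, 30.6 and 26.4 CPM in Tnc-/- (1.42, SE 0.36; edgeR, adjusted p = 0.0207). None of 6 tested chemokines that recruit or hold neutrophils was called by edgeR (2 at an unadjusted p under 0.05; 1 called by DESeq2, Ppbp). Ppbp, a platelet chemokine and Cxcr2 ligand, was at 144 ± 73.1 and 294 ± 69.7 CPM (1.03, SE 0.34; edgeR, adjusted p = 0.0508). Cxcl12, which holds neutrophils in the marrow, was at 341 ± 135 and 523 ± 86.0 CPM (0.62, SE 0.26; edgeR, adjusted p = 0.111). The Cxcr2 ligands Cxcl1, Cxcl2, Cxcl3 and Cxcl5 were below 12 CPM in every library.

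Of 6 granulocyte transcription factors, 3 rose: Cebpe, Cebpd and Spi1. Cebpe, which encodes C/EBP epsilon, was at 19.4, 11.2 and 7.2 CPM in wild type and at 46.4, 32.5, 43.4 and 37.3 CPM in Tnc-/-. The log2 fold change of 1.66, with an SE of 0.32 (edgeR, adjusted p = 0.00896) exceeded that of each of the 10 genes, a comparison made after the values were seen and not tested. Cebpe was still called without wild-type libraries 2 and 3 (1.03, SE 0.22; edgeR, adjusted p = 0.0285), but not with the receptor covariate (0.79, SE 0.36; adjusted p = 0.27). Cebpd went from 53.5 ± 10.7 to 91.6 ± 13.3 CPM (0.77, SE 0.18; edgeR, adjusted p = 0.0147).

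Of 7 genes of the oxidase and of chromatin release, 5 rose: Padi4, Cyba, Ncf1, Ncf4 and Rac2. Padi4, which modifies histones when neutrophils cast out their chromatin, went from 19.0 ± 5.55 to 47.4 ± 13.04 CPM (1.32, SE 0.28; edgeR, adjusted p = 0.011). Cyba, a membrane subunit of the oxidase, went from 83.9 ± 30.1 to 152 ± 15.9 CPM (0.86, SE 0.22; edgeR, adjusted p = 0.0227).

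Among the receptors and inhibitors of the products of the 10 genes, Tlr4 fell and Lrp1 rose, of 5 tested. Tlr4, a receptor for calprotectin, was at 35.3, 37.9 and 42.9 CPM in wild type and at 22.0, 21.4, 25.3 and 19.6 CPM in Tnc-/-. Its log2 fold change was -0.81 (SE 0.15; edgeR, adjusted p = 0.0083), with no overlap between the groups, and -0.68 (SE 0.19; edgeR, adjusted p = 0.0597) without wild-type libraries 2 and 3. Lrp1, a broad scavenger receptor that also binds lactoferrin, went from 503 ± 93.0 to 873 ± 145 CPM (0.79, SE 0.20; edgeR, adjusted p = 0.0207).

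**Figure D4:**
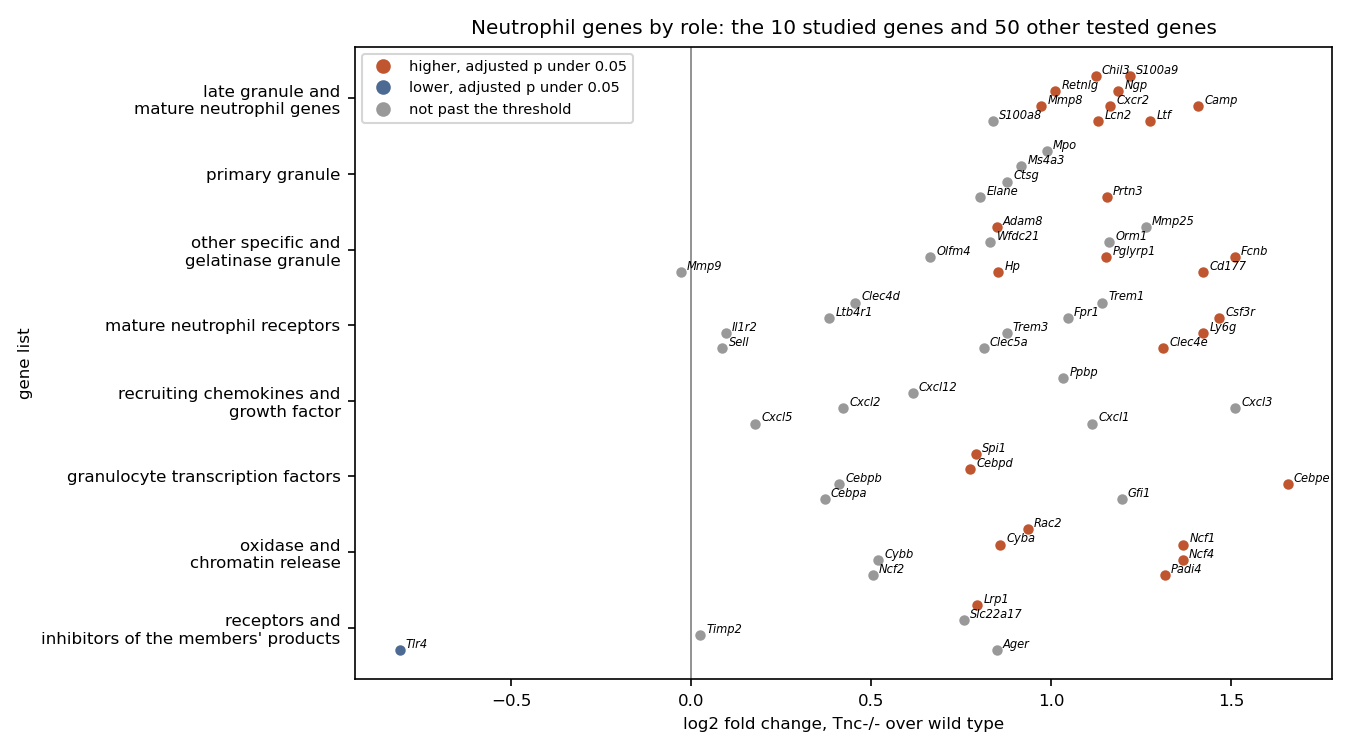
Log2 fold change of Tnc-/- over wild type (horizontal axis) of the 10 studied genes (top row) and of the 50 tested genes in the 7 role lists; each point is a gene, coloured by its call, and points are offset vertically for legibility. All points but Mmp9 and Tlr4 lie to the right of 0.

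The label was checked against markers of other cells that could hold these transcripts. Of the 6 neutrophil markers 4 are among the 10 genes, so apart from those the label rests on Ly6g and Csf3r, whose values are given above. The keratinocyte list of 6 genes, included since stressed epidermis makes S100a8 and S100a9, summed to at most 3.84 CPM in any library. Of the 4 genes of alternatively activated macrophages, which can make Chil3, none of 3 tested was called (edgeR; 0 at an unadjusted p under 0.05), and they summed to at most 37.1 CPM in any library. The sums of the 7 macrophage markers overlapped between the groups, at 645 to 1152 and 986 to 1239 CPM, and none was called by edgeR (0 at an unadjusted p under 0.05), DESeq2 or limma voom. Among the 7, C1qa was higher in every Tnc-/- library than in any wild-type one, and without wild-type library 1 edgeR called 5 of the 7, Cd68, Csf1r, C1qa, C1qb and C1qc, all higher. Ly6c2, 1 of 3 monocyte markers and also a marrow gene, rose from 74.5 ± 27.4 to 154 ± 40.3 CPM (1.05, SE 0.28; edgeR, adjusted p = 0.024), while the monocyte sums overlapped. The 10 genes summed to 5.21, 3.46 and 5.04 times the macrophage markers in wild type and to 10.5, 6.84, 9.0 and 6.46 times in Tnc-/-.

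Markers of some other lineages were higher too, in the marrow and outside it. The 7 erythroid markers, with Alas2 at 0 in every library, summed to 8504, 4395 and 5537 CPM in wild type and to 24710, 14230, 14560 and 12440 CPM in Tnc-/-, and 5 of 6 tested were called higher. Divided by the 10 neutrophil genes, they stood at 1.42 to 1.70 in wild type and 1.56 to 2.17 in Tnc-/-, with overlap. The 4 eosinophil markers summed to 26.6 to 107 and 123 to 232 CPM, with 1 called higher, and the 3 megakaryocyte markers to 126 to 210 and 248 to 421 CPM, with both tested genes called higher. The B cell markers, 6 of 7 analysed here, overlapped at 170 to 927 and 308 to 620 CPM. Of the osteoblast markers, 1 of 3 was called higher, and their sums overlapped at 8679 to 14690 and 10280 to 19460 CPM. The 4 skeletal muscle markers summed to 15610 to 21570 CPM in wild type and 22490 to 32940 CPM in Tnc-/-, with no overlap, and 1 of them, Myh4, was called higher (1.18, SE 0.22; edgeR, adjusted p = 0.00856). The sums of the tendon, chondrocyte, adipocyte and mast cell markers overlapped between the groups, and of these lists 1 of 3 adipocyte genes, Adipoq, was called higher (0.63, SE 0.21; edgeR, adjusted p = 0.0491). Of the 2 tested tendon markers Mkx, a tendon transcription factor, was called lower (-0.92, SE 0.28; edgeR, adjusted p = 0.0379) and Tnmd (tenomodulin) was at 0.007 (SE 0.25; edgeR, adjusted p = 0.987), with Scx at 0 counts in every library. The part of these markers in the neutrophil difference was not tested.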

How the data were processed

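RNA was sequenced from whole shoulder joints, 1 library per mouse, grouped by labelled genotype. Each deposited file lists whole-number read counts for the genes of 1 library. FastQC 0.11.9, HISAT2 2.2.1, HTSeq 2.0.2 and DESeq2 1.38.3 and the build GRCm39 (mm39) are named in the submitters' processing notes, with no role or order. The series' design text gives Bonferroni adjustment of DESeq2 results, run here as an alternative; the annotation release is not given in the sources used here. Wild-type files listed 56980 identifiers and Tnc-/- files 56941, with symbols; 56854 were in all files and 0 columns were left unmapped. Rows that name no gene held 30.1 to 32.7% of the reads listed in Tnc-/- files and were left out; wild-type files had none.

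Tests used edgeR 4.0.16 in R 4.3.3: the default filterByExpr filter, TMM scaling and the robust quasi-likelihood F test with genotype as the 1 term, adjusted by Benjamini-Hochberg over all 17791 tested genes at a threshold of 0.05. The standard error (SE) was the size of the log2 fold change over the square root of F. The procedure was tested on simulated data. Alternatives were DESeq2 1.42.0 (genes without an adjusted p left out of shares), limma 3.58.1 voom, other scalings and filters, left-out libraries, a covariate of 2010 smell and pheromone receptor genes, and the replicate number as a block. The labels give separate mice, so p-values measure the spread between mice. Exon lengths and spans came from GENCODE M21 (GRCm38) and promoters from RefSeq; no coordinates of the authors' build are given. The 10 genes, the role lists and the marker lists were chosen with earlier results of these data known. All 10 genes are named; from each role list the 2 tested genes with the smallest p are named with values. Other called genes are listed by name alone, and Mmp9, Cxcl1, Cxcl2, Cxcl3, Cxcl5, Il1r2, C1qa, Ly6c2, Adipoq, Mkx and Myh4 were picked out after their values were seen.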

Additional observations from a re-analysis of the deposited data

How the results depend on the processing

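The number of the 10 genes called was 9 in edgeR and stayed between 6 and 10 with other scalings or filters, with DESeq2 and Benjamini-Hochberg adjustment, with genes spanning at most 30 kb (an alternative chosen after seeing the data) and without the most abundant genes. It was 1 under DESeq2 with Bonferroni adjustment, 2 under limma voom, and 0 without wild-type libraries 2 and 3 or with the receptor covariate. Their median log2 fold change moved from 1.15 to 0.55 and 0.25 in the last 2 fits, and S100a8 turned to -0.034 with the covariate. Leaving out 1 library gave 1 to 10 of the 10 genes, 3 to 40 of the role-list genes and 2229 to 14113 of all genes. For the role-list genes, 19 in edgeR, the count was 29 with DESeq2, 1 with Bonferroni adjustment, 9 with limma voom, 2 without wild-type libraries 2 and 3 and 0 with the covariate. For all genes, 5159 in edgeR (64.5% lower), it was 9449, 1890 and 1004 with those tools, 825 without wild-type libraries 2 and 3, 397 with the covariate and 1995 among genes up to 30 kb. The share of lower calls was 27.5% with limma voom, 43.2% without wild-type libraries 2 and 3, 52.6% with the covariate and 54.3% with the replicate block. Library totals as scaling gave 82.7% lower calls and shifted the median of all genes to -0.24; 6 of the 10 genes were then called, with a median of 0.94. The causes were not tested beyond these fits. Across the tested genes, deviations of same-numbered libraries from their group means correlated at -0.0053, 0.102 and -0.0055. Between differently numbered libraries the correlations ran from -0.103 to 0.092. This check cannot decide whether the numbers pair the mice. In 9 of the 10 genes libraries 1, 3 and 2 ranked in that order in both genotypes, and the labels state no pairing. With the replicate block, 9 of the 10 genes, 21 role-list genes and 1932 of all genes were called. Tnc kept its call in every fit that tested it. Depth did not limit the 10 genes, whose lowest count in a library was 136.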
